A study of Mus musculus with 4 samples.

Results

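The 46 autophagy and mTORC1 genes described here are the subunits, enzymes, cargo receptors and regulators that carry a cell's self-digestion pathway from its starting kinase to fusion with the lysosome, together with the kinase complex that restrains it. They were taken from a list of gene symbols with no threshold on measured values, and all 46 were found among the 13834 genes of the deposited table. All 46 also passed the filter on low counts, among 12542 genes that did. RNA sequencing was done on mouse peritoneal macrophages from 2 Dnmt1fl/fl samples, the controls, which carry floxed Dnmt1 alleles and are labelled as wild type, and 2 Dnmt1KO samples, in which the floxed alleles meet Cre recombinase driven by the LysM promoter. That promoter is active across myeloid cells, so neutrophils and monocytes can carry the deletion as well as macrophages. Per the study's methods, the mice were 10 weeks old and peritoneal cells of both genotypes were drawn out 3 days after an injection of thioglycolate, an irritant that recruits monocytes to the peritoneal cavity. The comparison asks how the loss of Dnmt1, the enzyme that copies DNA methylation to new DNA strands, bears on gene expression in these cells. The labels do not say that replicates came from separate mice or how many mice a sample pools, so the p-values measure the spread between these samples, which may be technical.

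Autophagy encloses parts of the cytoplasm in a double membrane, the autophagosome, which then fuses with a lysosome and is digested. The ULK1 kinase complex starts the process, the class III PI3-kinase marks the membrane with a lipid, ATG9 and ATG2 proteins bring more membrane, and a pair of ubiquitin-like conjugation reactions attach LC3 and GABARAP proteins to it so that receptors such as p62 can tether their cargo. The kinase complex mTORC1, active when amino acids and growth factors are plentiful, phosphorylates ULK1 and holds the pathway back, and macrophages use the pathway to clear bacteria, spent mitochondria and stored lipid.

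Because the deleted enzyme maintains methylation at CpG dinucleotides, the promoter windows of 3 members whose values are described below are shown first. Each is the RefSeq window on GRCm38.p6 from 250 bases before to 50 bases after the listed transcription start, written 5′ to 3′ on the gene's own strand with every CpG in capitals. Gabarap, the most abundant member per kilobase, has 7 CpG in chr11:69991120-69991419 on the plus strand. Map1lc3b, which encodes the LC3 protein most used as a marker of autophagosomes, has 34 in chr8:121590188-121590487 on the plus strand. Atg9a, 1 of the members whose genotypes did not overlap, has 18 in chr1:75191961-75192260 on the minus strand. In GENCODE M21, Gabarap starts at 69991143 and Atg9a, on the minus strand, at 75192196, both inside their RefSeq windows. Most of each of these windows therefore lies within the annotated gene.
Gabarap: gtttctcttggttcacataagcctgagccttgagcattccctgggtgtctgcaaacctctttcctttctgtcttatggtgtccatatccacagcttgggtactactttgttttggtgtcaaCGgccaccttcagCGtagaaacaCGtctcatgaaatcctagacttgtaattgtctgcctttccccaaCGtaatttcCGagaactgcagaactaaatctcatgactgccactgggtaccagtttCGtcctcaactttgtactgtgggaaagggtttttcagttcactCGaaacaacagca
Map1lc3b: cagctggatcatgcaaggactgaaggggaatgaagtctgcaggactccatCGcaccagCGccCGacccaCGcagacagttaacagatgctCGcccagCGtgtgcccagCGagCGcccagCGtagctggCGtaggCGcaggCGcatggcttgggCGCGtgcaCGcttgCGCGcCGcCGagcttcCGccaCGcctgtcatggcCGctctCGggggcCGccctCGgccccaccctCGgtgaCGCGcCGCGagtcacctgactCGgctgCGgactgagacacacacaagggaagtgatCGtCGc
Atg9a: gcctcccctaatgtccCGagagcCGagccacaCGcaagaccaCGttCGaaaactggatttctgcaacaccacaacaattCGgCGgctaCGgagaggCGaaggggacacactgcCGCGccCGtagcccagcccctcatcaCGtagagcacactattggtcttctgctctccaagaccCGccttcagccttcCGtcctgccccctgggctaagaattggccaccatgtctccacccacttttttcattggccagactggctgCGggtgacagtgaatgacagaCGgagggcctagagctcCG

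RefSeq windows were matched for 39 of the 46 members, 45 windows in all. Pik3c3, Atg12, Atg16l1, Map1lc3a, Epg5, Rb1cc1 and Becn1 had no entry. The windows held 1 to 55 CpG with a median of 20, and the windows of all tested genes also had a median of 20. The ratio of observed to expected CpG had a median of 0.80 in members and 0.75 in tested genes. Across the 39 members, this ratio and the genotype log2 fold change had a Spearman's rho of -0.21, given as a description of genes measured in the same 4 libraries. The letters CACGTG, the core of the site that TFEB and related factors bind and a palindrome that reads alike on both strands, stood in 5 member windows, those of Atg3, Atg5, Atg7, Atg14 and Rheb. That is 11.1% of member windows, against 10.03% of windows of tested genes and 7.15% of all RefSeq windows of this length. DNA methylation itself was not analysed here.

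Libraries held 20228071 to 24198943 counts, and a member's deposited count in a sample ran from 137 to 13063. Dnmt1 (chr9:20907209-20959888, minus strand, GRCm38) measured 86.6 and 67.0 CPM (counts scaled to a common library size, with TMM factors) in the Dnmt1fl/fl samples and 37.0 and 42.7 CPM in the Dnmt1KO samples. The genotypes did not overlap, and the log2 fold change was -0.95 (SE 0.24, 95% interval -1.54 to -0.35), with an adjusted p of 1.00 by edgeR's quasi-likelihood test with Benjamini-Hochberg adjustment. Dnmt1KO replicate 1 stood apart in the markers of other cells. The 8 neutrophil markers summed to 913 CPM in it and to 225 to 326 CPM in the other 3 samples, and it was the highest sample for 8 of the 8. The 6 mesothelial cell and fibroblast markers summed to 93.5 CPM against 24.5 to 47.4, with that sample highest for 6 of the 6. The 6 B cell markers summed to 184 CPM against 389 to 588, and the 5 dendritic cell markers to 22.6 against 37.7 to 47.9. T cell markers summed to 17.9 to 26.6 CPM, and the 4 of 6 eosinophil and mast cell markers in the table to 10.6 to 16.3 CPM, while the defining eosinophil genes Prg2 and Epx were not among the table's genes. The 8 macrophage markers were measured at 123 CPM or more in each sample. Without Lyz2, the gene at the LysM locus, the other 7 summed to 5901 to 6684 CPM. Lyz2 itself measured 29461 and 28492 CPM in the controls and 11454 and 15675 CPM in the Dnmt1KO samples. In bulk RNA, fewer cells of a type and less RNA per cell cannot be told apart, and the part of these markers in the results that follow was not tested.

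No autophagy or mTORC1 gene passed the test between genotypes, in a design of 2 samples against 2. At an adjusted p under 0.05, 0 of 46 members and 0% of all tested genes were called by edgeR, and at an unadjusted p under 0.05, 0 of 46 members and 0.279% of all tested genes. DESeq2 and limma-voom also called 0 members at either threshold, and at an unadjusted p under 0.05 they called 0.311% and 0.319% of all tested genes. The adjusted p of every member was 1.00 by edgeR. Log2 fold changes of Dnmt1KO over Dnmt1fl/fl ran from -0.40 for Vmp1 to 0.44 for Atg101, with 27 members above 0 and 19 below. Their median was 0.05, against 0.00 for all tested genes. A log2 fold change of 0.2 or more was estimated for 11 members, 23.9% of them, where 21.8% of all tested genes had one. A log2 fold change of -0.2 or less was estimated for 3 members, 6.52% of them, against 19.7% of all tested genes. On all samples the first share lay near the background and the second below it, but both counts depended on single libraries. The first was 18 without Dnmt1KO replicate 2, where 34.3% of all tested genes were at 0.2 or more. The second was 1 without Dnmt1fl/fl replicate 1, where 20.4% of all tested genes were at -0.2 or less, 8 without Dnmt1fl/fl replicate 2, where 25.4% were, and 16 without Dnmt1KO replicate 2, where 38.0% were.

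With 2 samples against 2, an exact two-sided permutation test cannot give a p under 0.33. Both Dnmt1KO values lay above both control values for 4 members, Atg9a, Atg12, Map1lc3a and Map1lc3b, and 8.14% of all tested genes had that order. They lay below for 3 members, Becn1, Atg16l1 and Rptor, and 8.56% of all tested genes had that order. The other 39 members overlapped. The 95% intervals set how large a difference these libraries could still hold. They lay within 1 on the log2 scale, a doubling or a halving, for 39 members and reached past it for 7, from -1.22 for Tsc1 to 1.28 for Atg101. Without Dnmt1KO replicate 1, estimates of 0.2 or more numbered 8, against 20.9% of all tested genes, and estimates of -0.2 or less numbered 2, against 21.2%. In that fit 1 member, Ulk1, had an unadjusted p under 0.05, where 2.73% of all tested genes did. Without Dnmt1KO replicate 2, which leaves the sample with the high neutrophil marker sum as the lone Dnmt1KO sample, 12 members had an unadjusted p under 0.05 and 0 an adjusted one, where 27.6% and 8.32% of all tested genes did, and the lowest adjusted p of a member was 0.0511 for Tsc1 by edgeR.

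**Figure D1:**
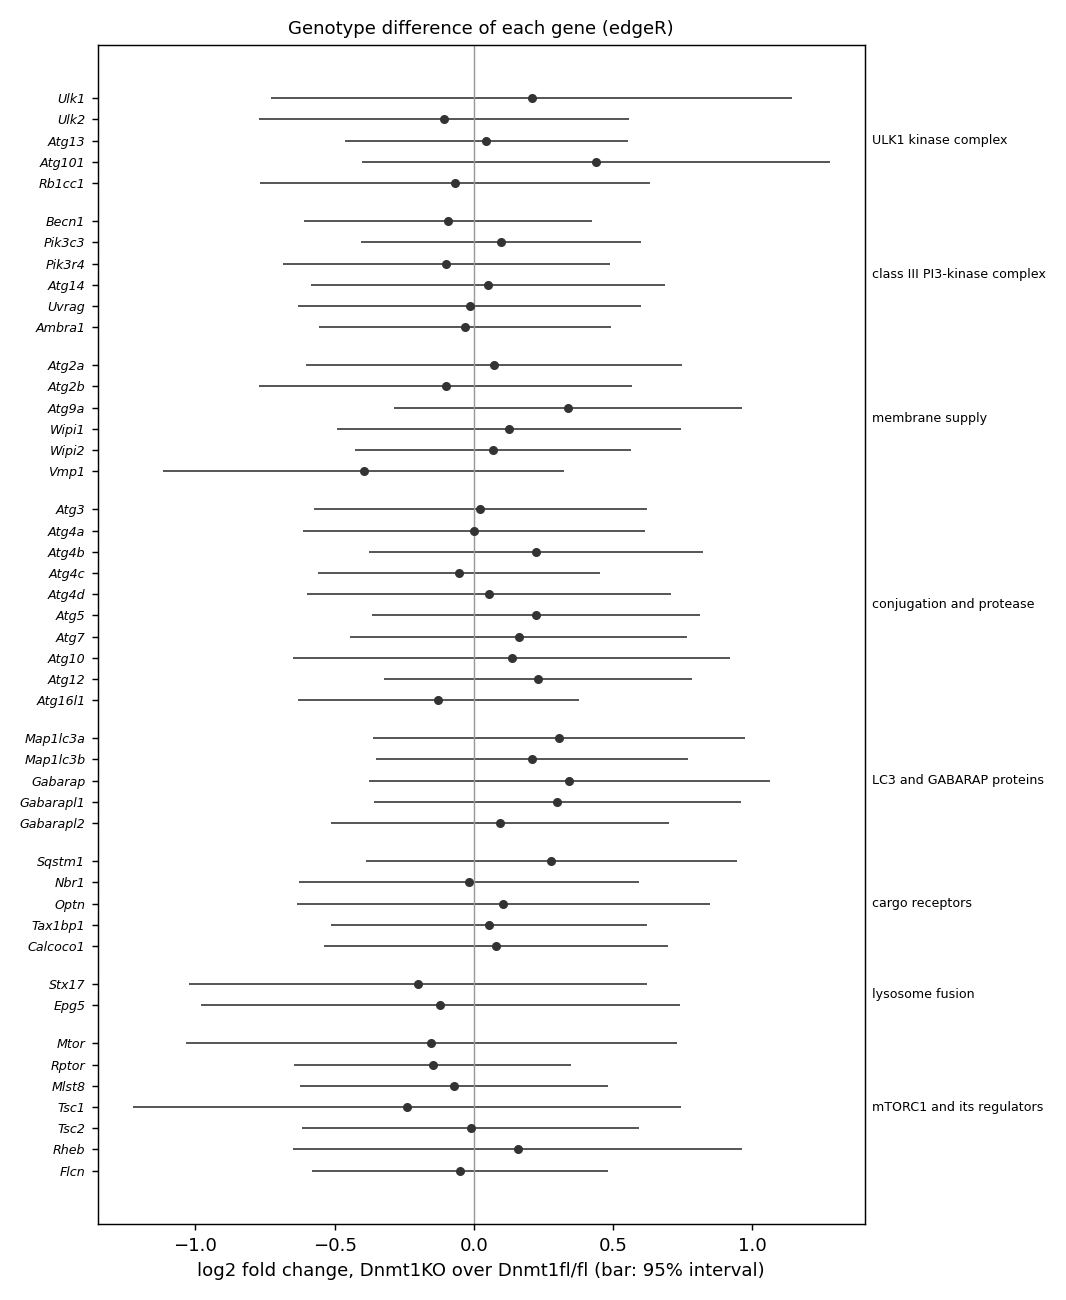
Log2 fold change of Dnmt1KO over Dnmt1fl/fl (horizontal axis) for each of the 46 genes, grouped by role, as points with bars for the 95% interval from edgeR's quasi-likelihood fit of 2 against 2 samples. Every bar crosses 0, and the points run from -0.40 for Vmp1 to 0.44 for Atg101.

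In the ULK1 kinase complex, values below are given for Dnmt1fl/fl replicates 1 and 2 and then for Dnmt1KO replicates 1 and 2, an order kept throughout. Ulk1 (chr5:110784488-110810097, minus strand, GRCm38), the kinase that starts autophagy, measured 36.7 and 28.3 CPM in controls and 24.7 and 50.2 CPM in Dnmt1KO. The Dnmt1KO samples were the lowest and the highest of the 4, so the log2 fold change of 0.21 (SE 0.38, 95% interval -0.73 to 1.14) averages values on either side of the controls. Without Dnmt1KO replicate 1 it was 0.63 and without Dnmt1KO replicate 2 it was -0.39. Atg101, a small subunit that stabilises ATG13, measured 23.0 and 32.2 CPM against 47.4 and 27.5 CPM. Dnmt1KO replicate 1 was the highest sample and Dnmt1KO replicate 2 lay between the controls. Its log2 fold change was 0.44 (SE 0.34, 95% interval -0.40 to 1.28), and -0.01 without Dnmt1KO replicate 1. Rb1cc1, the scaffold also called FIP200, measured 66.0 and 62.8 CPM against 47.7 and 75.3 CPM, again with Dnmt1KO on both sides of the controls (log2 fold change -0.07, SE 0.28, 95% interval -0.77 to 0.63). Its estimate was 0.22 without Dnmt1KO replicate 1 and 0.0531 after the correction for transcript length described below. Atg13, the subunit that mTORC1 phosphorylates beside ULK1, was the most even of the 5, at 67.3 to 71.7 CPM. Ulk2, the close relative of ULK1, had a log2 fold change of -0.11. All 5 members of the complex overlapped between genotypes.

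The 6 genes of the class III PI3-kinase complex had estimates between -0.10 and 0.10. Becn1, which encodes Beclin 1, the scaffold of the complex, measured 106 and 108 CPM in controls and 101 and 98.9 CPM in Dnmt1KO. Both Dnmt1KO values lay below both controls, at a log2 fold change of -0.09 (SE 0.21, 95% interval -0.61 to 0.42). After the length correction it was -0.00432. Its exons share 43.9% of their bases with Cntd1 on the opposite strand, and whether counting used strand is not given in the sources used here, so reads of both genes may be mixed. Pik3c3, the lipid kinase itself, measured 43.7 and 41.6 CPM against 48.4 and 43.0 CPM, and the second Dnmt1KO value lay between the controls (log2 fold change 0.10, SE 0.20, 95% interval -0.40 to 0.60). The estimate was 0.00898 without Dnmt1KO replicate 1. Pik3r4, its regulatory subunit, was at -0.10, Atg14, which directs the complex to autophagy, at 0.05, Uvrag, the endosomal alternative to ATG14, at -0.02, and the Beclin 1 partner Ambra1 at -0.03.

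Among the 6 genes that supply membrane, the lowest estimate of all members and 1 of the higher ones stood side by side. Vmp1 (chr11:86583865-86683836, minus strand, GRCm38), an endoplasmic reticulum protein needed for the membrane to grow, measured 143 and 179 CPM in controls and 97.6 and 147 CPM in Dnmt1KO. Dnmt1KO replicate 1 was the lowest sample and Dnmt1KO replicate 2 lay between the controls. The log2 fold change was -0.40 (SE 0.29, 95% interval -1.11 to 0.32), and -0.13 without Dnmt1KO replicate 1. Its transcript overlaps Mir21a on the same strand over 2.38% of its exon bases. Atg9a, whose promoter is shown above, encodes the transmembrane protein of the vesicles that seed the autophagosome. It measured 20.5 and 29.0 CPM against 30.1 and 32.4 CPM. Both Dnmt1KO samples lay above both controls, but the controls differed more from each other than the higher control did from either Dnmt1KO sample. The log2 fold change was 0.34 (SE 0.25, 95% interval -0.29 to 0.96), and 0.38 without Dnmt1KO replicate 1. It rested more on the controls, at 0.11 without Dnmt1fl/fl replicate 1 and 0.62 without Dnmt1fl/fl replicate 2. Of its exon bases, 31.8% also belong to Gm29253 on the same strand, so its reads could be split. The lipid transfer proteins Atg2a and Atg2b were at 0.07 and -0.10, and the lipid-binding proteins Wipi1 and Wipi2 at 0.13 and 0.07.

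The conjugation enzymes and ATG4 proteases numbered 10, and 8 of them had an estimate above 0, none of which passed the test. In Dnmt1KO replicate 1, 8 of the 10 were above both controls, whereas in Dnmt1KO replicate 2 a single gene was above and 5 were below. Here and in the groups below, the share of all tested genes outside the controls in a single sample was not computed. Atg7, the E1-like enzyme that starts both conjugation reactions, measured 110 and 108 CPM in controls and 140 and 104 CPM in Dnmt1KO (log2 fold change 0.16, SE 0.24, 95% interval -0.44 to 0.77). Atg5, the ATG12 acceptor, measured 49.8 and 53.9 CPM against 69.1 and 51.8 CPM (log2 fold change 0.22, SE 0.24, 95% interval -0.37 to 0.81). Atg4b, the main protease that trims LC3 before its attachment, measured 34.9 and 37.0 CPM against 48.7 and 35.2 CPM (log2 fold change 0.22, SE 0.24, 95% interval -0.37 to 0.82). In all 3 genes Dnmt1KO replicate 1 was the highest sample and Dnmt1KO replicate 2 lay at or near the controls. Without Dnmt1KO replicate 1 the estimates were -0.07 for Atg7, -0.002 for Atg5 and -0.03 for Atg4b. Atg12, the ubiquitin-like protein joined to ATG5, measured 58.4 and 62.7 CPM against 78.3 and 63.8 CPM, without overlap (log2 fold change 0.23, SE 0.22, 95% interval -0.32 to 0.78). Its estimate was 0.07 without Dnmt1KO replicate 1 and 0.35 after the length correction. Atg16l1, which carries the ATG12 and ATG5 pair to the membrane, measured 41.02 and 43.18 CPM against 36.15 and 40.89 CPM. Both Dnmt1KO values lay below both controls, the second only just under the lower control, at a log2 fold change of -0.13. After the length correction the estimate was -0.07. The other 5, the E2-like enzymes Atg3 and Atg10 and the proteases Atg4a, Atg4c and Atg4d, had estimates from -0.05 to 0.14.

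The LC3 and GABARAP proteins, the conjugated proteins that coat the autophagosome, were the group in which each estimate was above 0, with a median of 0.30 over 5 members. None passed the test. Gabarap (chr11:69991143-69994951, plus strand, GRCm38) measured 415 and 441 CPM in controls and 660 and 426 CPM in Dnmt1KO. Its log2 fold change of 0.34 (SE 0.29, 95% interval -0.38 to 1.06) was -0.01 without Dnmt1KO replicate 1 and 0.23 after the length correction. Map1lc3b (chr8:121590361-121598760, plus strand, GRCm38) measured 159 and 162 CPM against 203 and 168 CPM. The genotypes did not overlap, at a log2 fold change of 0.21 (SE 0.22, 95% interval -0.35 to 0.77), and the estimate was 0.06 without Dnmt1KO replicate 1. Map1lc3a, the second LC3 gene, measured 10.6 and 11.6 CPM against 15.2 and 12.2 CPM, also without overlap (log2 fold change 0.30, SE 0.27, 95% interval -0.36 to 0.97). Gabarapl1 measured 94.7 and 66.1 CPM against 106 and 92.0 CPM, and its second Dnmt1KO value lay between the controls (log2 fold change 0.30, SE 0.27, 95% interval -0.36 to 0.96). Without Dnmt1KO replicate 1 these estimates were 0.13 and 0.19. Gabarapl1 was at 0.58 without Dnmt1fl/fl replicate 1 and 0.07 without Dnmt1fl/fl replicate 2, and Map1lc3a was at 0.18 after the length correction. Of Gabarapl1's exon bases, 28.3% are shared with 1700101I11Rik on the opposite strand. All 5 genes were above both controls in Dnmt1KO replicate 1, the sample with the high neutrophil marker sum, and 2 of the 5 were in Dnmt1KO replicate 2. How many of all tested genes were was not computed.

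Among the cargo receptors, which bind ubiquitinated or damaged material and LC3 at the same time, Sqstm1, the gene of p62, measured 259 and 271 CPM in controls and 381 and 262 CPM in Dnmt1KO. Dnmt1KO replicate 1 was the highest sample and the other 3 lay close together. The log2 fold change was 0.28 (SE 0.27, 95% interval -0.39 to 0.94), and -0.02 without Dnmt1KO replicate 1. Its exons share 17.3% of their bases with Mrnip on the opposite strand. The other 4 receptors had estimates near 0, from -0.02 for Nbr1 to 0.11 for Optn, with Tax1bp1 at 0.06 and Calcoco1 at 0.08. All 5 overlapped.

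Of the genes for fusion with the lysosome, Stx17, the SNARE protein of the finished autophagosome, measured 46.8 and 34.6 CPM in controls and 26.0 and 44.8 CPM in Dnmt1KO. Dnmt1KO replicate 1 was the lowest sample and Dnmt1KO replicate 2 lay between the controls (log2 fold change -0.20, SE 0.33, 95% interval -1.02 to 0.62). Without Dnmt1KO replicate 1 the estimate was 0.14, and after the length correction it was -0.10. The tether Epg5 was at -0.12, with 30.6 and 23.0 CPM against 17.6 and 31.7 CPM, so that here too the Dnmt1KO samples were the lowest and the highest.

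The 7 genes of mTORC1 and its regulators had a median log2 fold change of -0.07, and of 0.0009244 after the length correction. Mtor (chr4:148448611-148557683, plus strand, GRCm38), the kinase, measured 39.9 and 26.1 CPM in controls and 21.8 and 37.5 CPM in Dnmt1KO. The second Dnmt1KO value lay between the controls (log2 fold change -0.15, SE 0.35, 95% interval -1.03 to 0.73), and the estimate was 0.19 without Dnmt1KO replicate 1 and -0.0158 after the length correction. Rptor, whose product Raptor brings substrates to the kinase, measured 41.4 and 37.8 CPM against 34.8 and 36.6 CPM. Both Dnmt1KO samples were below both controls (log2 fold change -0.15, SE 0.20, 95% interval -0.64 to 0.35), and the estimate ran from -0.21 to -0.079 with each sample left out in turn. After the length correction it was 0.0102, on the other side of 0. Tsc2, the GTPase-activating protein that switches RHEB off, measured 51.1 and 46.5 CPM against 40.7 and 56.1 CPM (log2 fold change -0.01, SE 0.24, 95% interval -0.62 to 0.59). The estimate was 0.20 without Dnmt1KO replicate 1 and 0.11 after the length correction. The Dnmt1KO samples were the lowest and the highest of the 4. Its partner Tsc1 spread further, at 58.0 and 40.4 CPM against 27.2 and 56.0 CPM. Rheb, the GTPase that activates mTORC1, had the opposite order, at 74.0 and 81.8 CPM against 111 and 62.5 CPM. Mlst8, a core subunit, was at -0.07, and Flcn, which acts on the Rag GTPases, was at -0.05. In Dnmt1KO replicate 1, 6 of the 7 genes lay below both controls, all but Rheb, and the share of all tested genes that did was not computed.

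**Figure D2:**
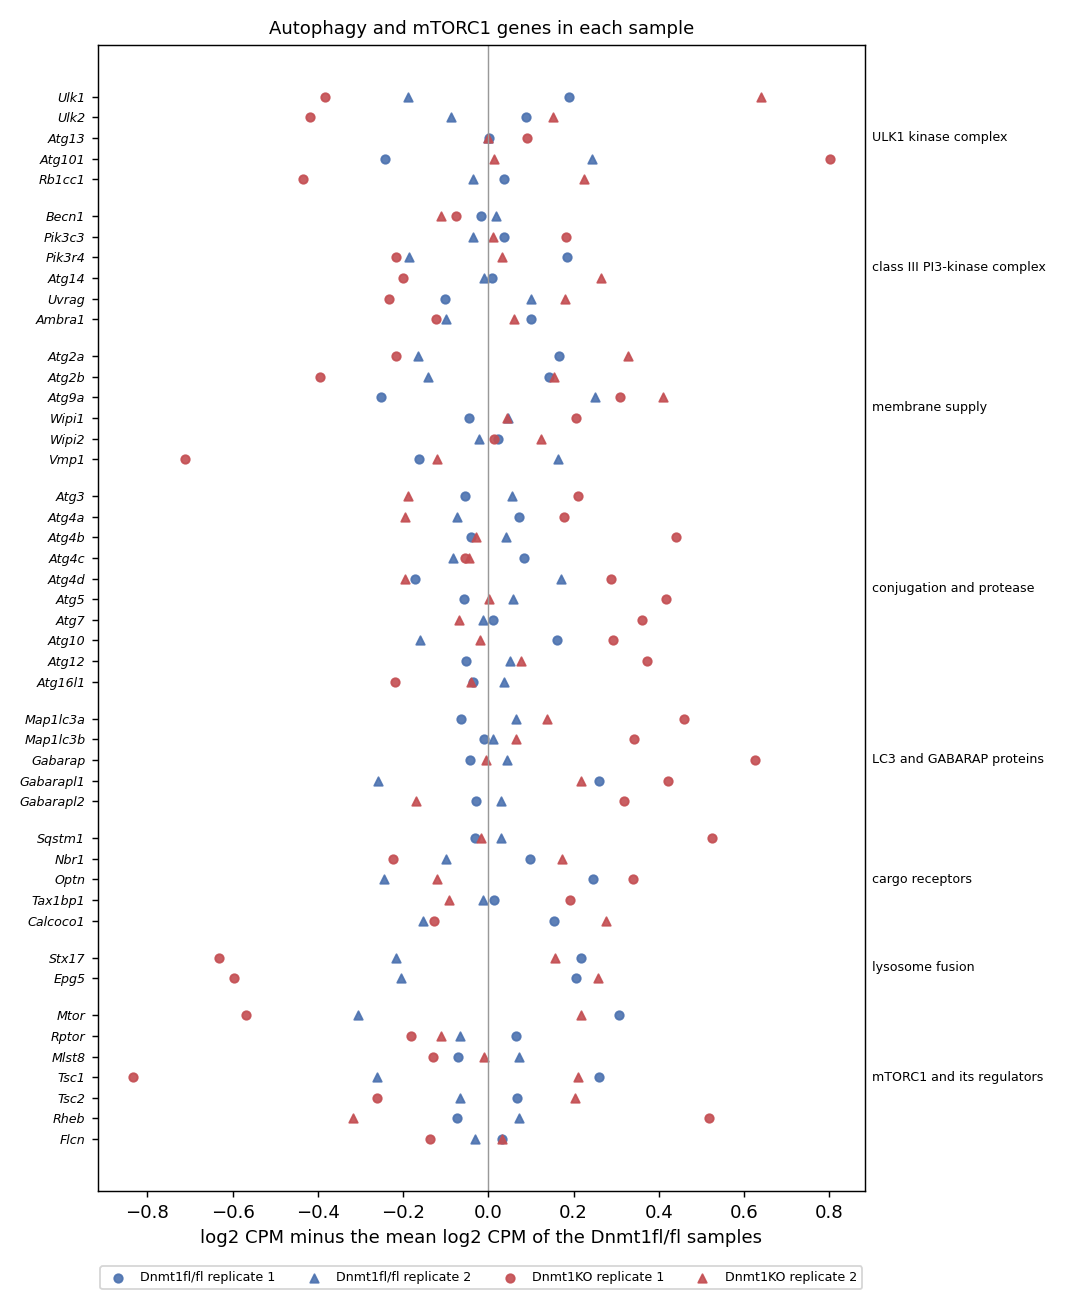
Log2 CPM of each of the 46 genes in each of the 4 samples, minus the mean log2 CPM of the 2 Dnmt1fl/fl samples (horizontal axis), with genes grouped by role, blue for Dnmt1fl/fl, red for Dnmt1KO, circles for replicate 1 and triangles for replicate 2. Dnmt1KO replicate 1 lies at least 0.4 from the control mean for 15 genes and Dnmt1KO replicate 2 for 2 genes.

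The Dnmt1KO samples differed more from each other than the controls did. The absolute log2 gap between them had a median of 0.41 over members, against 0.14 between the controls, and the same medians over all tested genes were 0.48 and 0.21. The gap was larger between the Dnmt1KO samples than between the controls for 37 members, 80.4% of them, and for 75.0% of all tested genes. For 41 of the 46 members it exceeded the size of the genotype log2 fold change. A gap between 2 single samples spreads wider than a difference between means of 2, so this count does not compare like with like. Its share over all tested genes was not computed. In 30 members the Dnmt1KO samples lay on opposite sides of the control mean. Dnmt1KO replicate 1 was above both controls for 22 members and below both for 21, and Dnmt1KO replicate 2 was above for 17 and below for 11. The shares of all tested genes in these positions were not computed, so whether the counts are particular to the members is not known. The pooled SD of the log2 values within genotypes exceeded the size of the log2 fold change in 30 members. With 2 samples per genotype, this SD equals the standard error of a difference of means. The count alone therefore does not tell noise from a difference, and its share over all tested genes was not computed.

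The side on which Dnmt1KO replicate 1 lay went with transcript length, taken as the longest annotated transcript of each gene, which ran from 1112 to 9660 bases over members. Of the 13 members under 3000 bases, which include Atg101, Gabarap, Map1lc3a and Sqstm1, 11 were above both controls in that sample, and their median log2 difference from the control mean was 0.34. Of the 15 members over 5000 bases, which include Ulk1, Stx17, Mtor, Tsc1 and Epg5, 13 were below both controls and the median was -0.38. Over all tested genes the medians in that sample were 0.24 for the short class and -0.35 for the long class. Vmp1, with 2787 bases, was the short member that lay below. In Dnmt1KO replicate 2 the medians were -0.02 for the short members and 0.18 for the long members. Across the 46 members, the deviation of each sample from the gene's mean had a Pearson's r with log10 length of 0.54 and 0.05 in the controls, and of -0.70 and 0.59 in Dnmt1KO. Over all tested genes these values were smaller, at 0.32 and -0.10 in the controls and -0.30 and 0.26 in Dnmt1KO, apart from Dnmt1fl/fl replicate 2, whose sign turned. These are correlations across genes of the same libraries and carry no test. After a length trend fitted on all tested genes was removed from each library, 0 members passed either threshold, and 35 members were above 0. The median was then 0.10, against 0.05 for all tested genes, and the r of the log2 fold change with log10 length went from -0.57 to -0.17.

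**Figure D3:**
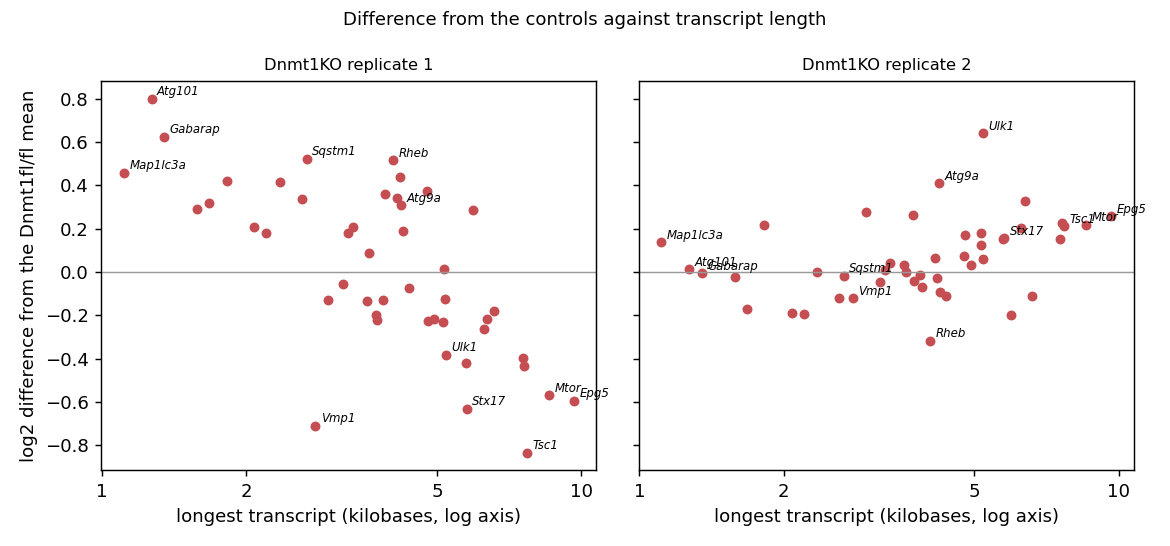
Log2 difference of Dnmt1KO replicate 1 (left) and Dnmt1KO replicate 2 (right) from the mean of the 2 Dnmt1fl/fl samples, on the vertical axis, against the longest transcript in kilobases on a log axis, with 1 point for each of the 46 genes and some of them named. On the left, the median is 0.34 for the 13 genes under 3000 bases, with Vmp1 and Calcoco1 below 0, and -0.38 for the 15 genes over 5000 bases, with Atg4d and Wipi2 above 0.

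The levels of the members, as CPM per kilobase of the longest transcript and averaged over the 4 samples, spanned a wide range. Gabarap stood highest at 359 ± 86.4 (SD, n = 4), followed by Sqstm1 at 110 ± 21.96. Tax1bp1 at 56.5 ± 4.81, Vmp1 at 50.7 ± 11.98, Gabarapl1 at 49.3 ± 9.25, Atg3 at 46.2 ± 5.42 and Map1lc3b at 41.8 ± 4.96 came next, and neighbours among these 5 differed by less than the larger of their SDs. The lowest were Wipi1 at 4.02 ± 0.30, Atg2b at 3.98 ± 0.70, Mtor at 3.66 ± 1.02 and Epg5 at 2.66 ± 0.69, and neighbours among these did not differ beyond their spread either. Within families the order of levels was the same in each sample where the ratio per kilobase stayed on 1 side of 1. Gabarap was 5.90 to 8.98 times Gabarapl1 and 11.3 to 14.1 times Gabarapl2, Map1lc3a was 0.247 to 0.278 times Map1lc3b, and Wipi1 was 0.393 to 0.475 times Wipi2. Atg2a was 1.41 to 1.63 times Atg2b, Ulk1 was 0.557 to 0.839 times Ulk2, and Atg4c was 2.44 to 3.69 times Atg4d. Atg4a and Atg4b had no fixed order, with a ratio of 0.857 to 1.11, and 34.7% of the 100-base stretches of Atg4a recur in its pseudogene Atg4a-ps.

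**Figure D4:**
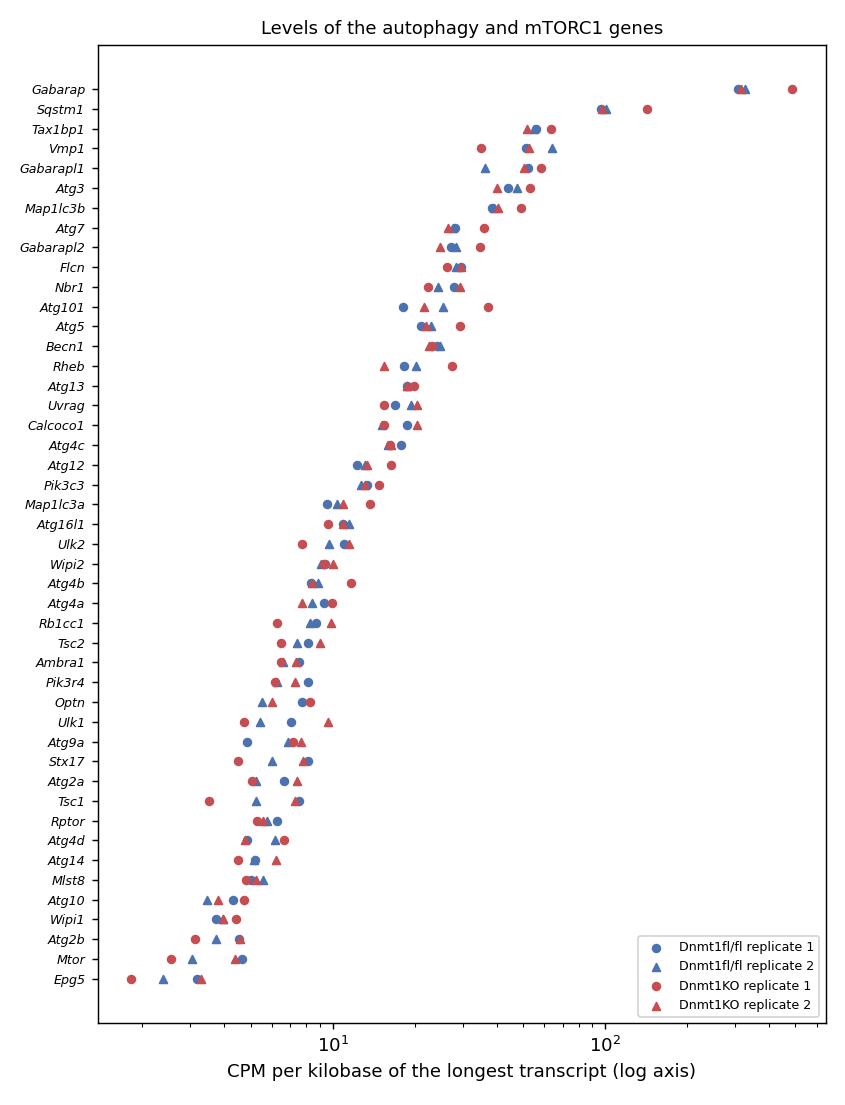
CPM per kilobase of the longest transcript, on a log axis, for each of the 46 genes in order of their mean, with 1 point for each sample, blue for Dnmt1fl/fl, red for Dnmt1KO, circles for replicate 1 and triangles for replicate 2. Gabarap and Sqstm1 lie apart at the top, at means of 359 and 110, and Epg5 is lowest at 2.66.

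Of 62 further genes listed around these members, all of them tested, 0 passed at an adjusted or an unadjusted p under 0.05 in either direction by edgeR, where 0% and 0.279% of all tested genes did. Their log2 fold changes had a median of 0.07, with 39 above 0, and 8 were higher and 5 lower without overlap, an order that 8.14% and 8.56% of all tested genes had. The 3 with the smallest p were Bnip3, Sesn2 and Bnip3l. Bnip3, a mitochondrial autophagy receptor induced by low oxygen, measured 40.1 and 45.4 CPM in controls and 98.6 and 44.0 CPM in Dnmt1KO (log2 fold change 0.74, SE 0.40, 95% interval -0.26 to 1.74). That difference lay in Dnmt1KO replicate 1, since Dnmt1KO replicate 2 lay between the controls. Sesn2, a leucine sensor that restrains mTORC1, measured 9.55 and 11.8 CPM against 18.7 and 12.1 CPM, without overlap (log2 fold change 0.52, SE 0.32, 95% interval -0.28 to 1.33). Bnip3l, the receptor also called NIX, measured 295 and 270 CPM against 443 and 304 CPM, also without overlap (log2 fold change 0.40, SE 0.27, 95% interval -0.27 to 1.07). Tfeb, the transcription factor that mTORC1 keeps out of the nucleus and that drives autophagy and lysosome genes, measured 76.5 and 59.6 CPM against 79.2 and 68.2 CPM (log2 fold change 0.11, SE 0.24, 95% interval -0.48 to 0.71). By group, the 9 Rag GTPase and Ragulator genes had a median of 0.26, the 8 genes of the GATOR complexes -0.04, the 5 AMP-activated kinase genes 0.01, and the 11 genes of autophagosome fusion 0.13, and no gene of any of these passed the test. Of the 9 Rag GTPase and Ragulator genes, 7 lay above both controls in Dnmt1KO replicate 1 and 2 in Dnmt1KO replicate 2, with no share over all tested genes computed.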

How the data were processed

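The authors sequenced paired-end RNA libraries (NEBNext Ultra) and deposited estimated counts per gene, not normalized. The submitters' processing notes name HISAT2 2.0.5, featureCounts 1.5.0-p3, DESeq2 1.20.0 and mm10. Between 72.6% and 76.4% of a sample's values are whole, and how reads shared by genes were divided is not given in the sources used here. A shorter table of genes chosen by the authors was not used.

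Estimated counts were rounded, filtered with filterByExpr and scaled by TMM. Genotypes were compared with edgeR 4.0.16 (R 4.3.3), a two-sided quasi-likelihood F-test on genotype with Benjamini-Hochberg adjustment over 12542 genes. Standard errors and 95% intervals were derived from the test statistic. Totals of 20228071 to 24198943 counts put the counting error of the lowest member count at 8.54%, counting error only. The comparison was repeated with limma 3.58.1 (voom) and DESeq2 1.42.0, under no filter and a stricter one, with a replicate block, a length correction (loess, span 0.5), both together, and without each sample in turn. Positions, lengths and shared sequence come from GENCODE M21 (GRCm38), where 98.8% of tested genes had a length, and promoters from RefSeq.

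The list of members, which uses no measured value, the other gene lists and the tests were all chosen with earlier results of these data known. Full values are given for the 12 members with the smallest p, for standard genes of each role, for Dnmt1, for Tfeb and for the 3 other pathway genes with the smallest p. Replicate numbers come from the labels, and no source says that they pair the samples.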

Additional observations from a re-analysis of the deposited data

How the results depend on the processing

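With 2 samples per genotype, the 95% intervals lay within a doubling either way for 39 members. Shared sequence, unstated strand and cell mixture bear on the values given above. DESeq2, limma-voom, no filter, at least 10 counts in every sample, the replicate block, the length correction and both together each left 0 members and 0 pathway genes at an unadjusted p under 0.05, where 0.271% to 0.434% of all tested genes passed, and 11 to 14 members at 0.2 or more either way, where 39.0% to 45.8% of all tested genes were. The length correction moved the median of members from 0.05 to 0.10 and that of all tested genes from 0.00457 to 0.04984. Members above 0 went from 27 to 35, a count whose share over all tested genes was not computed. Members at -0.2 or less went from 3 to 1 (all tested genes from 19.7% to 15.6%). Members without overlap went from 7 to 10 (all tested genes from 16.7% to 18.8%). Of 147 values of the 20 named members and Dnmt1 on all samples, crossed pairing excluded, 142 kept their direction. The length correction put Rptor at 0.0102, Rb1cc1 at 0.0531 and Tsc2 at 0.11 on the log2 scale, above 0, and the replicate block with the length correction gave Rb1cc1 0.0532 and Tsc2 0.11. Those 3 genes are long, and the correction removes a trend with length by construction.

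The replicate block gave 0 called members, 13 members at 0.2 or more either way, against 42.6% of all tested genes, and a Dnmt1 log2 fold change of -0.94. Same-numbered samples deviated from their genotype means with a correlation of -0.35 over 12542 genes, and no source pairs them. A crossed pairing, chosen after seeing the data, gave 0 members and 1 pathway gene at an unadjusted p under 0.05, where 2.37% of all tested genes passed, and 3 of all tested genes at an adjusted p under 0.05 by edgeR.

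With each sample left out in turn, the lone sample was assumed to vary like the other genotype, and the count of genes without overlap was not computed. Members at an adjusted p under 0.05 numbered 0 in each case. At an unadjusted p under 0.05 they numbered 0 to 12, pathway genes numbered 0 to 18, and members at 0.2 or more either way numbered 10 to 34, each highest without Dnmt1KO replicate 2. There, 27.6% of all tested genes had an unadjusted p under 0.05, 72.4% were at 0.2 or more either way, and 1061 had an adjusted p under 0.05 by edgeR. The Dnmt1 log2 fold change ran from -1.12 to -0.75, and without Dnmt1KO replicate 2 it was -1.05 with an adjusted p of 0.0200 by edgeR. Of 84 left-out values of named genes, 14 changed sign, in 11 genes. Log2 fold changes ran from -0.65 to 0.14 for Stx17, -0.60 to 0.19 for Mtor, -0.26 to 0.20 for Tsc2, -0.0115 to 0.78 for Atg101, -0.00905 to 0.62 for Gabarap, -0.0198 to 0.52 for Sqstm1, -0.00249 to 0.42 for Atg5, -0.0311 to 0.44 for Atg4b, -0.43 to 0.22 for Rb1cc1, -0.0712 to 0.36 for Atg7 and -0.39 to 0.63 for Ulk1, and the cause was not tested. The other 9 kept their sign, from -0.72 to -0.13 for Vmp1, 0.11 to 0.62 for Atg9a, 0.13 to 0.46 for Map1lc3a, 0.07 to 0.58 for Gabarapl1, 0.0727 to 0.37 for Atg12, 0.063 to 0.34 for Map1lc3b, -0.21 to -0.079 for Rptor, -0.11 to -0.0715 for Becn1 and 0.00898 to 0.18 for Pik3c3.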
